A study of Mus musculus with 4 samples.

Results

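The genes described here were 34 mouse genes of the interferon response and of antigen presentation on MHC class I, picked by their annotated symbol, each represented by the probe set with the highest mean over all arrays. A probe set annotated with the symbol was found for 29 of the 34 genes, and 24 of these passed a filter on dim genes and were tested among 11874 genes. The 5 genes with no such probe set, Isg15, Oas1a, Tap1, Tap2 and B2m, were not analysed here. Levels were measured on 4 Affymetrix arrays of colon adenoma organoids, 3-dimensional cultures of tumour epithelium, on a C57BL/6 background, grown for 7 days with 50 ng/ml EGF. The 2 arrays labelled Gata6 null/Apc null came from organoids with the alleles VillinCreERT2, Gata6fl/fl and Apcfl/fl, and the 2 labelled Apc null from organoids with VillinCreERT2, Gata6+/+ and Apcfl/fl. VillinCreERT2 is a tamoxifen-inducible Cre recombinase driven by a promoter of intestinal epithelium, so both groups carried the recombinase and the deletion of Apc, a brake on Wnt signalling, and they differed by label in the transcription factor Gata6. Each group held 1 array of batch B and 1 of batch A, and the labels do not say what the batch letter stands for. The design text calls the samples biological replicates without naming separate mice, so p-values may measure only a technical spread.

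Interferons are secreted proteins that bind receptors on the cell surface and activate JAK kinases, STAT proteins and interferon regulatory factors. Type I and type III interferons act through a complex that holds Stat2 and Irf9 and binds the interferon-stimulated response element of many antiviral genes, whereas interferon gamma acts mainly on genes with a gamma-activated site. Antigen presentation on MHC class I, which these signals can raise in epithelium, uses the immunoproteasome to cut peptides, the Tap transporter and tapasin to load them, and the H2 heavy chains with B2m to show them to T cells.

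All levels below are log2 expression values as deposited by the authors, computed with RMA, and a difference of 1 is a 2-fold change. Array medians lay between 4.91 and 5.04, and the arrays correlated at 0.963 to 0.979 across genes. The arrays of 1 batch correlated at 0.978 in batch B and at 0.979 in batch A, and the arrays of 1 genotype at 0.976 for Gata6 null/Apc null and 0.975 for Apc null. The targeted gene did not read lower under the Gata6 null label. One Gata6 probe set read 9.21 in batch B and 9.11 in batch A of Gata6 null/Apc null, against 8.65 and 8.83 in Apc null, and the other read 9.40 and 9.37, against 8.61 and 8.89. Whether these probes fall inside or outside the deleted exons was not known, so they check nothing, and every direction by genotype below rests on the labels. Of the epithelial markers, 8 of 8 were above the filter level of 4.45, with a mean of 10.68 in batch B and 10.63 in batch A of Gata6 null/Apc null, against 10.98 in both Apc null arrays. Much of that gap lay in Cdx2, an intestinal transcription factor, which read 8.11 in batch B and 7.29 in batch A of Gata6 null/Apc null, against 9.41 and 9.13 in Apc null. Cdx2 differed by -1.57, with an adjusted p of 0.228 by limma and 0.00545 with the batch as a block, and without it the marker means were 11.05 and 11.11, against 11.21 and 11.25. Of 12 immune cell markers with a probe set 3 were above the filter, as were 2 of 8 fibroblast and 3 of 6 endothelial markers. None of the fibroblast and endothelial markers passed in any fit. By batch the fibroblast genes Pdgfrb and Dcn differed by -0.27 and -0.072, and the endothelial genes Vwf and Pecam1 by 0.65 and -0.22. In these bulk samples, fewer cells of a type and less RNA per cell cannot be told apart.

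Between the genotypes the members differed in both directions, with a difference above 0 in 9 of 24 (37.5%), against 44.1% of all genes. A single member, Ifitm1, passed the threshold of 0.05 on the adjusted p of limma, with an 11.8-fold higher level under the Gata6 null/Apc null label. That is 1 of 24 members, where 0.648% of all genes tested passed. With the batch letter as a block, 5 of 24 members passed (20.8%), against 6.88% of all genes: Ifitm1, Ifitm2, Ifitm3 and Usp18 were higher and Ifi27 was lower in Gata6 null/Apc null. The median difference of the 24 members was -0.20, against -0.03 over all genes. It was -0.27 in batch B and 0.02 in batch A. The median rested on single arrays, at -0.083 without batch A and -0.33 without batch B of Gata6 null/Apc null, and at -0.30 without batch A and -0.0051 without batch B of Apc null. The 2 arrays of each genotype did not overlap for 9 members. They were higher in Gata6 null/Apc null for Ifitm1, Ifitm2, Ifitm3, Usp18 and Tapbp (20.8%), against a background of 14.7%. They were lower for Oasl1, Oasl2, Oas2 and Irf8 (16.7%), against a background of 17.3%. Both shares lie near those of all genes. Usp18 and Oasl2 had 1 genotype mean under the filter level. That mean was 4.06 in Apc null for Usp18 and 4.06 in Gata6 null/Apc null for Oasl2. Both were tested only because of their higher arrays.

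Between the batches, 22 of the 24 members tested were higher on average in batch B, by mostly small amounts. That is 91.7% of the members, against 42.7% of all genes, with a median of 0.21 for the members and -0.06 for all genes. Ifitm1 and Irf8 were the exceptions. Among the 22, Ifit3, Oas2, Rsad2, Irf1, Ifi35, Ddx58 and Psmb8 had batch differences of opposite sign in the 2 genotypes. The members' median was 0.35 without batch A and 0.37 without batch B of Gata6 null/Apc null, 0.41 without batch A and 0.21 without batch B of Apc null, and 0.33 without probe sets of shared sequence. No gene at all passed in the fit with the batch letter alone (0%), in which 2432 genes and 4 members had an unadjusted p under 0.05 and the smallest adjusted p of limma was 0.127. With genotype as a block, 16.6% of all genes passed in either direction, 7.53% higher and 9.12% lower in batch B. Of the 24 members 6 passed (25%), of which 5 were higher in batch B, Usp18, Irf9, Stat2, Ifi27 and H2-Q1 (20.8%), and 1 was lower, Ifitm1. Usp18 and H2-Q1 had batch A means of 4.08 and 4.33, under the filter level, so they were tested only because of their batch B values. The 2 batches did not overlap for 9 members that were higher in batch B (37.5%), against 21% of all genes, and for 0 members that were lower, against 33.1% of all genes. These 9 were Irf7, Irf9, Stat2, Ifi27, Ifih1, Psmb9, H2-K1, H2-D1 and H2-Q1, each by its chosen probe set. The further probe sets of Psmb9 and H2-K1 above the filter overlapped between the batches. Those of H2-D1 differed by 0.19, -0.16 and -0.02 by batch. The further probe sets of Ifi27 and Stat2 were higher in both batch B arrays. What the batch letter stands for was not known, so the source of this difference was not tested.

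**Figure D1:**
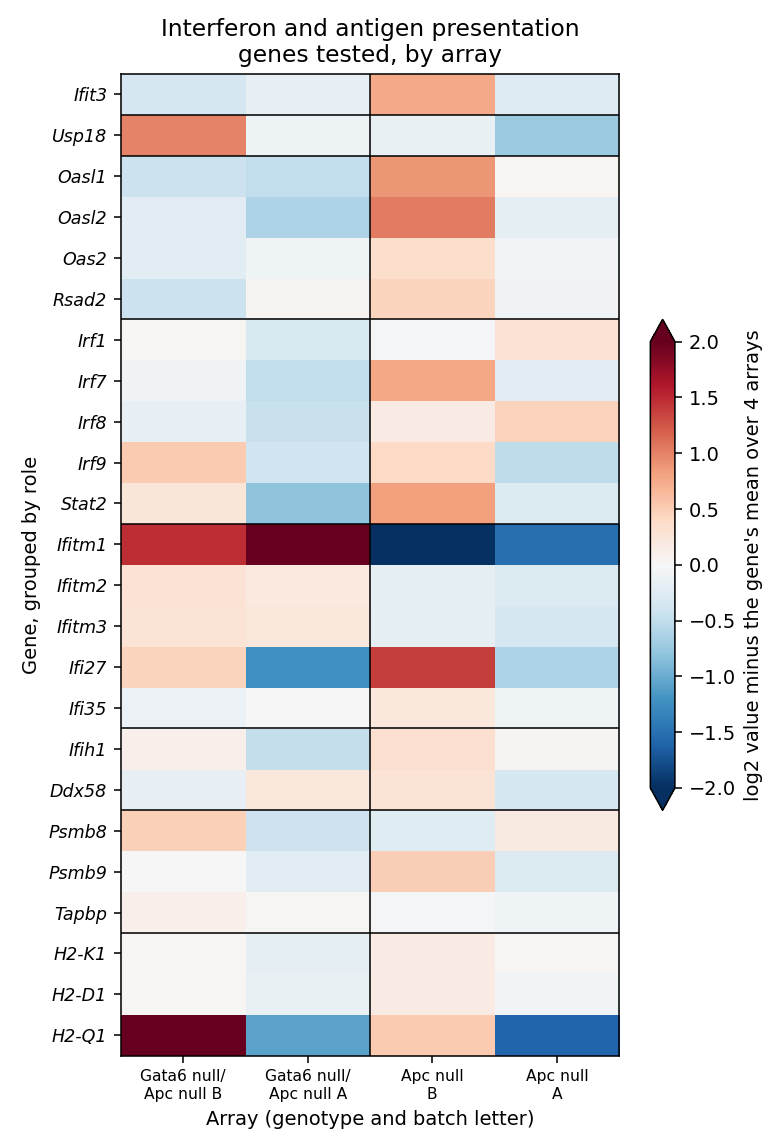
Levels of the 24 members tested, as the log2 value minus the gene's mean over the 4 arrays, with genes in rows grouped by role (lines separate the groups) and arrays in columns by genotype and batch letter. Ifitm1 sets the genotypes apart (9.71 in Gata6 null/Apc null and 6.15 in Apc null on average), while Ifi27, Stat2, Irf9 and H2-Q1 are redder in the batch B column of each genotype. The colour scale ends at 2 in each direction, which Ifitm1 and H2-Q1 exceed.

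The Ifitm genes encode small membrane proteins that block the entry of enveloped viruses, and all 3 of those measured were higher under the Gata6 null/Apc null label in both batches. Ifitm1 read 9.40 in batch B and 10.03 in batch A of Gata6 null/Apc null, against 5.87 in batch B and 6.43 in batch A of Apc null. Both Gata6 null/Apc null arrays were far above both Apc null arrays. Ifitm1 averaged 9.71 ± 0.44 in Gata6 null/Apc null and 6.15 ± 0.40 in Apc null (SD, n = 2 each). The difference was 3.56 with a standard error of 0.34 and an adjusted p of 0.0334 by limma, or 0.000238 with the batch as a block. It was as large in each batch, 3.53 in batch B and 3.60 in batch A. Ifitm1 was also lower in batch B than in batch A of either genotype, by a difference of -0.59, with an adjusted p of 0.881 that came to 0.0433 with genotype as a block. With only 4 arrays the genotype call did not hold each time an array was left out. The adjusted p was 0.0569 without batch A of Gata6 null/Apc null, 0.0536 without batch A of Apc null and 0.0682 without batch B of Apc null, with differences between 3.25 and 3.88.

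Ifitm2 and Ifitm3 were higher under the same label by a smaller amount, and passed only with the batch as a block. Ifitm2 read 11.25 in batch B and 11.15 in batch A of Gata6 null/Apc null, against 10.76 and 10.68 in Apc null. Ifitm3 read 11.60 in batch B and 11.56 in batch A of Gata6 null/Apc null, against 11.16 and 11.00 in Apc null. For both genes the genotypes did not overlap and the spread within a genotype was small. The difference was 0.48 for Ifitm2 (SE 0.10, 1.39-fold), with an adjusted p of 0.214 by limma and 0.0125 with the batch as a block. The difference was 0.50 for Ifitm3 (SE 0.10, 1.42-fold), with an adjusted p of 0.167 by limma and 0.00939 with the batch as a block. Unlike Ifitm1, both read slightly higher in batch B, by 0.09 and 0.10, and neither passed in the batch fits.

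**Figure D2:**
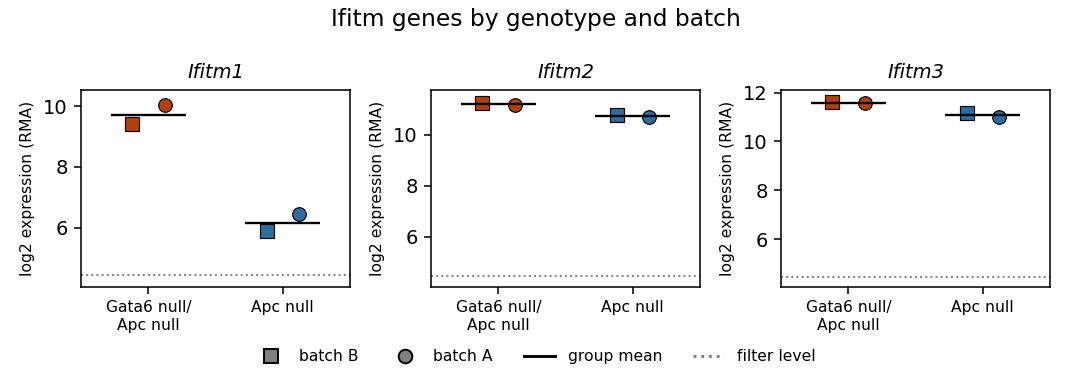
Log2 expression (RMA) of Ifitm1, Ifitm2 and Ifitm3 in each array, with Gata6 null/Apc null on the left and Apc null on the right, squares for batch B, circles for batch A, bars for group means and a dotted line at the filter level of 4.45. Each panel has its own vertical range. In each gene both Gata6 null/Apc null arrays lie above both Apc null arrays, by 3.56 on average for Ifitm1, 0.48 for Ifitm2 and 0.50 for Ifitm3.

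The Ifitm promoters are shown because these genes differed by genotype in the same direction and by unequal amounts. The windows are from RefSeq on the mouse assembly GRCm38.p6 and run from 250 bases before to 50 bases after the annotated start, 5′ to 3′ along the gene. They lie at chr7:140967826-140968125 on the plus strand for Ifitm1, at chr7:140955912-140956211 on the minus strand for Ifitm2 and at chr7:141010695-141010994 on the minus strand for Ifitm3. Capitals mark matches, on either strand, to the core of the interferon-stimulated response element, GAAANNGAA, or of the gamma-activated site, TTCNNNGAA.
Ifitm1: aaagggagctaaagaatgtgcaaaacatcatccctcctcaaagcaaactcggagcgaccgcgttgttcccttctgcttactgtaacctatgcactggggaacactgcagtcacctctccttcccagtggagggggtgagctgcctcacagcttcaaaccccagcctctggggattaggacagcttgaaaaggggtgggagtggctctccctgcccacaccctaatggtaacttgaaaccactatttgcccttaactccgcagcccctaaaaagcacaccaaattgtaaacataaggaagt
Ifitm2: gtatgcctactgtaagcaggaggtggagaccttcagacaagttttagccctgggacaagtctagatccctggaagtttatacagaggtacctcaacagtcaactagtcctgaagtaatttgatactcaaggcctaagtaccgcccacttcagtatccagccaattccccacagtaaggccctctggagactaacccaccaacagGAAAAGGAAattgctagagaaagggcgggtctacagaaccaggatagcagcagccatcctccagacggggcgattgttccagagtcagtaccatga
Ifitm3: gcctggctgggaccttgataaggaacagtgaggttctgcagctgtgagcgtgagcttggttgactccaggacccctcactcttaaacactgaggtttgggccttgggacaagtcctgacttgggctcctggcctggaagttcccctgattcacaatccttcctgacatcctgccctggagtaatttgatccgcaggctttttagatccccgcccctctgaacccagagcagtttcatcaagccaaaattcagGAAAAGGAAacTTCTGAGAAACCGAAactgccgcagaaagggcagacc
The Ifitm1 window held neither motif. The Ifitm2 window held 1 match to the response element core, GAAAAGGAA. The Ifitm3 window held 2, GAAAAGGAA and GAAACCGAA, and the second overlapped a match to the gamma-activated site core, TTCTGAGAA. A match describes letters in this window and not a bound site.

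Across the list, 26 of 34 members had a promoter window in the table. The response element core was in 11 of these 26 (42.3%), against 9.76% of 27025 genes with a window and 8.56% of 32851 windows. It was in the windows of Ifit1, Ifit3, Isg15, Oas1a, Rsad2, Stat2, Ifitm2, Ifitm3, Ifih1, Ddx58 and B2m. The gamma-activated site core was in 7 of 26 (26.9%), those of Ifit2, Oas1a, Irf1, Irf8, Ifitm3, Ifi35 and Psmb8, against 9.55% of genes and 8.3% of windows. The members were picked as interferon response and antigen presentation genes, so these shares describe the list and not the arrays. Among the genes named, Isg15, Oas1a and B2m had no probe set annotated with the symbol, and Ifit1 and Ifit2 were not tested. Of the members that passed in any fit and had a window, Ifitm2, Ifitm3 and Stat2 held the response element core, while Ifitm1 and Irf9 held neither core.

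Of the Ifit genes, whose proteins bind viral RNA and stop its translation, only Ifit3 was above the filter level. Ifit3 read 5.54 in batch B and 5.71 in batch A of Gata6 null/Apc null, against 6.64 in batch B and 5.63 in batch A of Apc null. The Apc null array of batch B alone stood out, by about 1 log2 unit. The difference by genotype was -0.51 (SE 0.39, adjusted p of 1.00 by limma), made up of -1.10 in batch B and 0.08 in batch A. Ifit1 lay between 3.34 and 3.79 and Ifit2 between 3.45 and 4.21 over the 4 arrays, under the filter, and they were not tested.

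Usp18, a protease that takes Isg15 off its target proteins and damps type I interferon receptor signalling, was higher with both the Gata6 null label and batch B. It read 5.49 in batch B and 4.40 in batch A of Gata6 null/Apc null, against 4.36 in batch B and 3.77 in batch A of Apc null. The highest array was Gata6 null/Apc null of batch B, and 3 of 4 arrays were under the filter level. The genotype difference was 0.88 (SE 0.42), with an adjusted p of 0.794 by limma and 0.0356 with the batch as a block. The batch difference was 0.84 (SE 0.46), with an adjusted p of 0.381 by limma and 0.0287 with genotype as a block. Usp18, Oasl2 and H2-Q1 passed the filter although the mean of 1 genotype or batch was under it, with lowest such means of 4.06, 4.06 and 4.33.

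The oligoadenylate synthetase genes and viperin shared their highest array. Oasl1, whose product in mouse restrains the translation of Irf7, read 4.75 in batch B and 4.69 in batch A of Gata6 null/Apc null, against 6.06 in batch B and 5.22 in batch A of Apc null. Oasl2, a related antiviral enzyme, read 4.26 and 3.86 in Gata6 null/Apc null, against 5.53 and 4.29 in Apc null. Oas2, which makes the oligoadenylates that switch on RNase L, read 4.86 and 5.01 in Gata6 null/Apc null, against 5.44 and 5.04 in Apc null. In these 3 genes both Gata6 null/Apc null arrays were below both Apc null arrays, and the Apc null array of batch B was the highest. The genotype difference was -0.92 for Oasl1 (SE 0.31), -0.85 for Oasl2 (SE 0.44) and -0.30 for Oas2 (SE 0.21). Their adjusted p values by limma were 0.531, 0.851 and 1.00, and 0.0761, 0.0879 and 0.478 with the batch as a block, so none passed. Rsad2, which encodes viperin, an enzyme that makes a chain-terminating nucleotide, read 4.89 and 5.37 in Gata6 null/Apc null, against 5.76 and 5.24 in Apc null. A second probe set of Rsad2 read 4.95 and 4.91, against 6.04 and 4.80, so both had their highest value in Apc null of batch B. The Mx genes, antiviral GTPases, were under the filter, with Mx1 between 3.69 and 4.10 and Mx2 between 3.45 and 3.85.

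Among the transcription factors, Stat2 and Irf9, partners in the complex that binds the response element, followed the batch letter in both genotypes. Stat2 read 7.79 in batch B and 6.74 in batch A of Gata6 null/Apc null, against 8.36 in batch B and 7.27 in batch A of Apc null. The batch difference was 1.07 (SE 0.31, 2.10-fold), with an adjusted p of 0.178 by limma and 0.0150 with genotype as a block. It was 1.05 within Gata6 null/Apc null and 1.09 within Apc null, and 0.64 in the second probe set of Stat2. Irf9 read 8.02 in batch B and 7.10 in batch A of Gata6 null/Apc null, against 7.90 in batch B and 6.99 in batch A of Apc null. Its batch difference was nearly the same in each genotype, 0.92 and 0.91, with an adjusted p of 0.127 by limma and 0.0198 with genotype as a block. By genotype, Irf9 differed by 0.11 and Stat2 by -0.55, and neither passed in either fit.

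Irf7, which drives the type I interferon genes, also read higher in batch B of each genotype, without passing. It read 6.26 in batch B and 5.84 in batch A of Gata6 null/Apc null, against 7.11 in batch B and 6.13 in batch A of Apc null. The batch difference was 0.70 (SE 0.35), with an adjusted p of 0.345 by limma and 0.0781 with genotype as a block. Irf8, an interferon gamma-inducible factor best known in blood cells, was split by genotype instead. Irf8 read 7.50 in batch B and 7.21 in batch A of Gata6 null/Apc null, against 7.83 and 8.12 in Apc null, a difference of -0.61 (SE 0.26, adjusted p of 0.695 by limma and 0.144 with the batch as a block). Its second probe set read 5.33 and 4.99, against 5.74 and 6.49, with the same direction. Irf1, a factor induced by interferon gamma, read 8.19 and 7.84 in Gata6 null/Apc null, against 8.13 and 8.44 in Apc null, and its groups overlapped both ways.

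The promoters of Stat2 and Ifit3 are shown for 2 patterns by batch letter, a difference in both genotypes for Stat2 and in a single array for Ifit3. The Stat2 window lies at chr10:128270248-128270547 on the plus strand and the Ifit3 window at chr19:34583279-34583578 on the plus strand, with capitals marking matches to the response element core on either strand.
Stat2: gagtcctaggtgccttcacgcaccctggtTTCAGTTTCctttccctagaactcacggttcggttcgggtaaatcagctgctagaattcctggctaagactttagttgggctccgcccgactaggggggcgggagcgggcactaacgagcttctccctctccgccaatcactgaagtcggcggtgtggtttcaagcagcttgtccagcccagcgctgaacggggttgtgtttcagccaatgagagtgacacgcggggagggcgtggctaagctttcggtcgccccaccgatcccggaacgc
Ifit3: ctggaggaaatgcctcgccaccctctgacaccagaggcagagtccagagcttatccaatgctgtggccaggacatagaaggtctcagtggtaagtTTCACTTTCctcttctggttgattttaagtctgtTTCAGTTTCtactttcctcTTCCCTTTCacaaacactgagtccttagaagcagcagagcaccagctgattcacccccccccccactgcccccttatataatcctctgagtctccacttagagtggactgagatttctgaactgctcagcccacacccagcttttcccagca
Both genes held this core on the opposite strand, once in Stat2 as TTCAGTTTC and in 3 places in Ifit3, as TTCACTTTC, TTCAGTTTC and TTCCCTTTC. Neither window held the gamma-activated site core.

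Ifi27, an interferon-induced membrane protein of mitochondria and nucleus, had the smallest adjusted p of the members by batch with genotype as a block. It read 9.73 in batch B and 8.06 in batch A of Gata6 null/Apc null, against 10.66 in batch B and 8.67 in batch A of Apc null. The batch difference was 1.83 (SE 0.40, 3.56-fold), with an adjusted p of 0.141 by limma and 0.00848 with genotype as a block. The second probe set of Ifi27 read 8.32 and 6.86 in Gata6 null/Apc null, against 9.59 and 7.29 in Apc null, a batch difference of 1.88. By genotype Ifi27 was lower in Gata6 null/Apc null in each batch, with differences of -0.93 in batch B and -0.61 in batch A and an adjusted p of 1.00 by limma and 0.0198 with the batch as a block. Ifi35, a binding partner of Nmi, read 7.38 and 7.50 in Gata6 null/Apc null, against 7.71 and 7.42 in Apc null, and the groups overlapped both ways.

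Of the cytosolic sensors of viral RNA, Ifih1 (MDA5) and Ddx58 (RIG-I), neither passed in any fit. Ifih1 read 6.43 in batch B and 5.85 in batch A of Gata6 null/Apc null, against 6.65 in batch B and 6.38 in batch A of Apc null, so both batch B arrays were higher by a narrow margin. Ddx58 read 7.83 and 8.23 in Gata6 null/Apc null, against 8.28 and 7.65 in Apc null. Its difference by genotype had opposite signs in the batches, -0.45 in batch B and 0.58 in batch A.

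**Figure D3:**
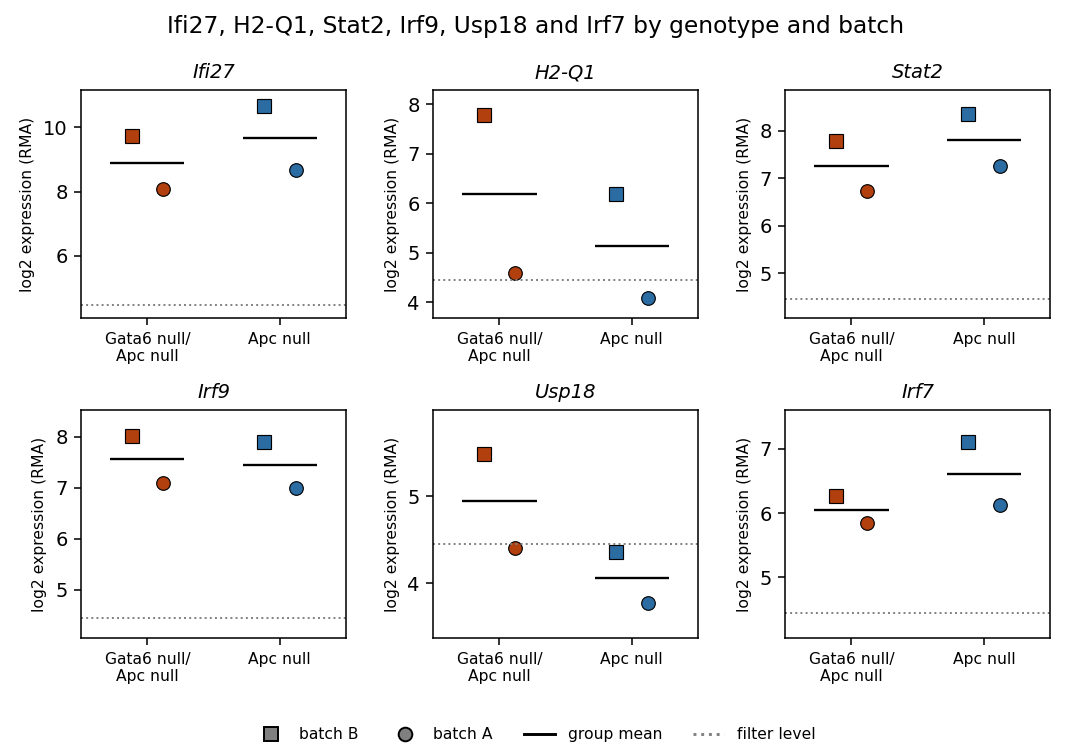
Log2 expression (RMA) of Ifi27, H2-Q1, Stat2, Irf9, Usp18 and Irf7 in each array, with Gata6 null/Apc null on the left and Apc null on the right, squares for batch B, circles for batch A, bars for group means and a dotted line at the filter level of 4.45. Each panel has its own vertical range. The square lies above the circle in both genotypes of each gene, and in Usp18 the squares and circles of the 2 genotypes overlap.

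Of the antigen presentation members, only H2-Q1 passed in any fit. The classical heavy chains H2-K1 and H2-D1 carry peptides to the cell surface and were far above the filter level in every array. H2-K1 read 11.81 in batch B and 11.59 in batch A of Gata6 null/Apc null, against 11.96 in batch B and 11.81 in batch A of Apc null. H2-D1 read 11.38 and 11.21 in Gata6 null/Apc null, against 11.52 and 11.31 in Apc null. The batch difference was 0.19 for each, with adjusted p values by limma of 0.386 and 0.280, and 0.0670 and 0.0818 with genotype as a block. The probe sets used for both carry the array maker's mark for sequence shared with other genes, so signal from related H2 genes cannot be told apart.

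H2-Q1, a heavy chain of the Q region, had the largest batch difference among the members. It read 7.78 in batch B and 4.59 in batch A of Gata6 null/Apc null, against 6.17 in batch B and 4.07 in batch A of Apc null. It was above the filter level in 3 of 4 arrays and clearly so only in batch B. The batch difference was 2.65 (SE 0.60), with an adjusted p of 0.145 by limma and 0.0115 with genotype as a block, made up of 3.20 within Gata6 null/Apc null and 2.10 within Apc null. The genotype difference of 1.06 (SE 1.24) had an adjusted p of 1.00 by limma and 0.0959 with the batch as a block. Nlrc5, the transactivator of class I genes, lay between 3.46 and 4.08 and was not tested.

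The peptide supply genes showed no call. Psmb8, an immunoproteasome subunit, read 6.94 in batch B and 6.06 in batch A of Gata6 null/Apc null, against 6.23 and 6.65 in Apc null, so the batches differed in opposite directions in the genotypes. Psmb9, its partner subunit, read 7.16 and 6.96 in Gata6 null/Apc null, against 7.66 and 6.89 in Apc null, with the highest value again in Apc null of batch B. A second probe set of Psmb9 was instead highest in Gata6 null/Apc null of batch B, at 6.70, against 6.52 in Apc null of batch B. A dimmer one was highest in Apc null of batch B, at 5.15. Tapbp, which encodes tapasin, read 9.99 and 9.93 in Gata6 null/Apc null, against 9.86 and 9.82 in Apc null. Its genotypes did not overlap, yet the difference was only 0.12 (SE 0.13, adjusted p of 1.00 by limma). In a second probe set of Tapbp, at 8.13 and 8.22 against 8.17 and 8.11, the genotypes overlapped.

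The array with the highest value was most often Apc null of batch B. It was the highest of the 4 arrays for 14 of 24 members (58.3%), against 19.8% of all genes. Gata6 null/Apc null was the highest for 7 members in batch B and for 1 in batch A, and Apc null of batch A for 2. The median batch difference of the members was 0.21 within Gata6 null/Apc null and 0.46 within Apc null. For the 18 interferon-induced members tested these medians were 0.20 and 0.55. Whether the batch differences differed between genotypes was not tested, since each batch of a genotype was 1 array. The mean of the immune markers was 4.22 in batch B and 4.16 in batch A of Gata6 null/Apc null, against 4.31 in batch B and 4.20 in batch A of Apc null, all below the filter level. That Apc null of batch B was the highest here rested on Cd68, described below. Ptprc, the marker of all leukocytes, lay between 3.07 and 3.25 over the 4 arrays. The part of immune markers in the result was not tested. Of the immune markers only Cd68, a lysosomal protein of macrophages also found in other cells, passed in any fit. It read 7.23 in batch B and 4.94 in batch A of Gata6 null/Apc null, against 7.56 and 5.92 in Apc null, with a batch difference of 1.97 and an adjusted p of 0.132 by limma and 0.0115 with genotype as a block. No other immune marker was higher in both batch B arrays than in both batch A arrays. Cd3g, Cd79a, Itgam, Adgre1 and Nkg7 were lower in both batch B arrays, and the rest overlapped.

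**Figure D4:**
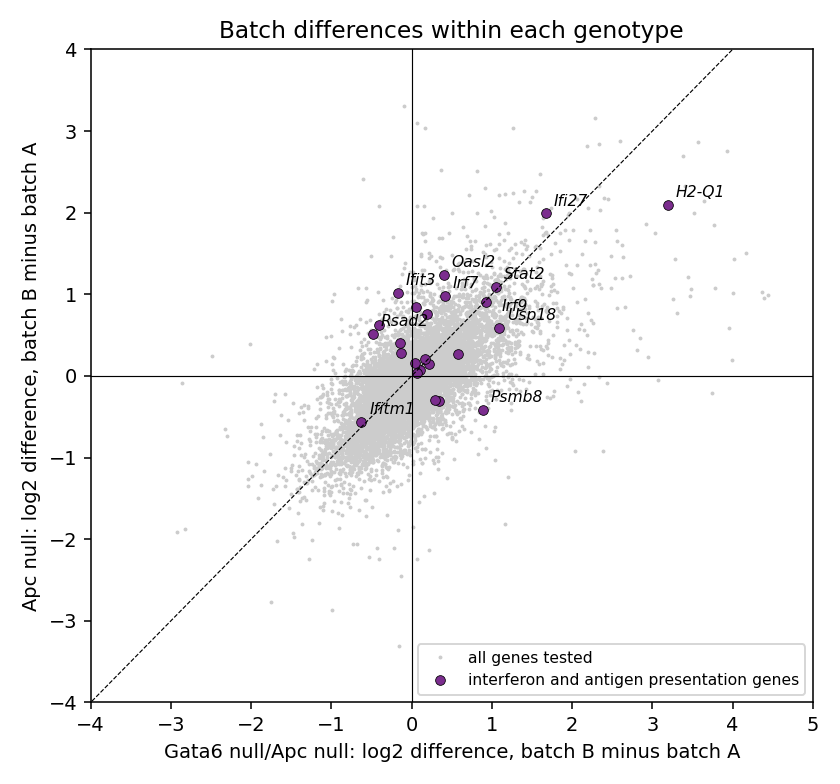
Log2 difference of batch B minus batch A within Gata6 null/Apc null (horizontal) and within Apc null (vertical), with 1 point per gene, grey for the 11874 genes tested and purple for the 24 members. The dashed line marks equal differences. Ifi27, Stat2, Irf9, Usp18 and H2-Q1 lie to the upper right, Ifitm1 to the lower left, and the median member is at 0.21 on the horizontal and 0.46 on the vertical axis.

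Other genes of the pathway were read from further lists, and each count below is from limma with genotype as a block for batch and with the batch as a block for genotype. Of 24 further interferon-induced genes tested, 6 were higher (25%) and 3 lower (12.5%) in batch B, against 7.53% and 9.12% of all genes. Their median batch difference was 0.21, and Apc null of batch B was the highest array for 13 (54.2%), against 19.8% of all genes. The higher ones included Rtp4, a receptor chaperone, which read 7.33 in batch B and 6.06 in batch A of Gata6 null/Apc null, against 8.40 and 6.16 in Apc null (1.75, adjusted p of 0.0155). Shisa5 differed by 0.74, Oas1g by 0.72 and Lgals3bp by 0.66, with adjusted p values of 0.0115, 0.0191 and 0.0166. The 3 lower ones were Samhd1, Nmi and Parp12, with differences of -0.86, -0.85 and -0.71 and adjusted p values of 0.0363, 0.0313 and 0.0431. By genotype only Lgals3bp passed, at -0.64 with an adjusted p of 0.0212. These genes thus held both higher and lower members by batch, and 1 lower member by genotype.

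Upstream of these genes, most interferons with a probe set were under the filter level. Of 12 ligands listed 7 had a probe set and 2 were above the filter, Ifna5 and Ifna1, which differed by -0.23 and -0.09 between batches without passing. The probe sets of both carry the array maker's mark for sequence shared with other genes. Of 11 sensing pathway genes tested, Dhx58, a relative of the viral RNA sensors, was higher in batch B by 1.25, and the kinase Ikbke by 0.85, with adjusted p values of 0.0121 and 0.0332. Dhx58 passed the filter through its batch B values, with a batch A mean of 4.43 under it. The adaptor Myd88 was lower in batch B by a difference of -0.88, with an adjusted p of 0.0363. Of 10 receptor, JAK and STAT genes tested, none passed by batch, and by genotype the receptor chain Ifngr1 passed. Ifngr1 read 8.62 in batch B and 7.65 in batch A of Gata6 null/Apc null, against 9.43 and 9.44 in Apc null, a difference of -1.30 (SE 0.36), with an adjusted p of 0.367 without the block and 0.0277 with it. Of 6 negative regulators and related genes tested, the exonuclease Isg20 was higher in batch B by 0.86 (adjusted p of 0.0293). None of 5 interferon-induced GTPases of the Gbp and Irg families passed. Among them Irgm1 differed by -0.53 between genotypes and Igtp by 0.76 between batches.

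Other class I genes included 3 that were higher in batch B, of 14 tested (21.4%), against 7.53% of all genes. H2-T23, a non-classical heavy chain that presents leader peptides, read 9.56 in batch B and 8.42 in batch A of Gata6 null/Apc null, against 9.41 and 8.43 in Apc null (1.06, adjusted p of 0.0115). H2-Q10 read 7.17 and 4.89, against 6.93 and 5.56 (1.83, adjusted p of 0.0147), and H2-Q4 differed by 0.76 (adjusted p of 0.0378). With H2-Q1 these made 4 genes of the H2 class I family that passed by batch, while H2-K1 and H2-D1 differed by 0.19 and did not. Whether the probe sets of these 4 genes also read related H2 genes was not tested. Of 11 further proteasome genes tested none was higher and 3 were lower in batch B (27.3%, against 9.12% of all genes). The lower ones were Psmd1, Psmb5 and Psmb4, with differences of -0.45, -0.32 and -0.31 and adjusted p values of 0.0207, 0.0382 and 0.0401. The median of these 11 was -0.24 and 0 of 11 had a batch difference above 0, against 42.7% of all genes. None of 6 MHC class II genes passed by batch. H2-Ab1 differed by 1.66 (adjusted p of 0.0637), and by -0.12 when probe sets with shared sequence were left out, and Cd74 differed by -0.28. The batch difference of H2-Ab1 was 2.76 within Gata6 null/Apc null and 0.57 within Apc null. H2-Ab1 passed the filter through its batch B values, with a batch A mean of 4.20 under it.

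**Figure D5:**
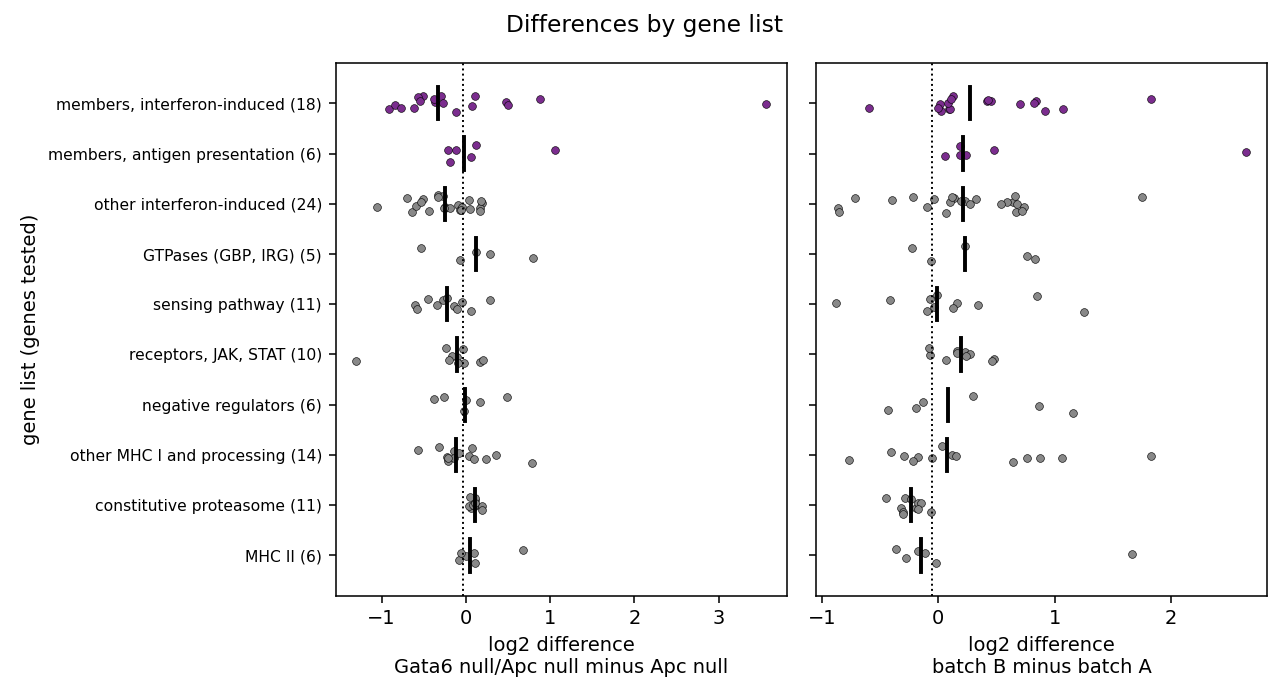
Log2 differences of the genes tested in each list, for Gata6 null/Apc null minus Apc null (left) and batch B minus batch A (right), with 1 point per gene, a bar at each list's median and a dotted line at the median of all genes (-0.03 on the left, -0.06 on the right). The number in brackets is the number of genes tested. The medians of interferon-induced members, antigen presentation members and other interferon-induced genes are 0.28, 0.21 and 0.21 on the right. That of the further proteasome genes, labelled constitutive proteasome, is -0.24.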

How the data were processed

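The 4 arrays, 2 per genotype, were hybridised with cDNA amplified from 25 ng of total RNA, per the labels' protocols. What the authors deposited is a log2 value per probe set. The submitters' processing notes name RMA and affy, whose versions are not stated in the sources used here. RMA applies quantile normalization across arrays and compresses low values towards a floor, and depth has no counterpart on arrays, so precision is limited by the number of arrays.

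Of 45141 probe sets, the 104 controls were dropped. Platform annotation gave 1 gene to 28898, several genes to 551 and none to 15588, and only the first were named. Each of 17097 genes took its probe set with the highest mean. A filter at the 40th percentile of mean levels (4.45) left 11874 genes. Of 15 further probe sets above this level, for 9 members, 13 had the sign of the chosen one by genotype and 12 by batch.

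Genotypes and batch letters were compared with limma 3.58.1 under R 4.3.3, using lmFit and a trended eBayes with 1 term each, and two-sided p-values adjusted by Benjamini-Hochberg over all genes tested. This gave 62 higher and 15 lower genes in Gata6 null/Apc null. These fits have 2 residual degrees of freedom, and those with the other factor as a block have 1. The shared batch letter in the labels pairs 1 array of each genotype, and the batch deviations of the genotypes correlated at 0.675 across genes. The blocked value is given where it changes a call. Each SD is taken over 2 arrays. On simulated data with known changes, the fits were checked for the size and sign of the differences. No bound was set there on false or missed calls.

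The members and the gene lists were chosen with earlier results of these data known, so their counts are read against all genes. Every member was described. Of each other list, up to 4 genes past the threshold, or else the 2 of smallest p, were named. Further immune markers and the 3 further interferon-induced genes that were lower in batch B were named as well. Alternatives were the mean of all probe sets, no shared-sequence probe sets (identifiers ending in x_at or s_at), no filter, a filter at the 60th percentile, no trend, arrays centred on their medians, the block and each array left out. Promoter windows came from RefSeq and matched 26 of 34 members.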

Additional observations from a re-analysis of the deposited data

How the results depend on the processing

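With the batch letter as a replicate block, which pairs the arrays by batch, limma called 817 genes by genotype in place of 77, and 5 members in place of 1. Leaving out 1 array in turn gave 33 to 130 genes and 0 to 1 members. The member was Ifitm1, lost without batch A of Gata6 null/Apc null or without either Apc null array. By batch, genotype as a block gave 1977 genes and 6 members, against 0 and 0 without it. With 1 array left out the members' median difference ran from -0.33 to -0.0051 by genotype and from 0.21 to 0.41 by batch. The block leaves 1 residual degree of freedom, so these calls rest on very few arrays, and leaving out an array under the block could not be fitted. Dim genes have no detection call here.

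The mean of all probe sets turned the genotype difference of Ddx58 to -0.038, and leaving out shared-sequence probe sets turned the batch difference of H2-Ab1 to -0.12 and left H2-K1 and H2-D1 untested. Leaving out 1 array turned the sign of some differences. These include 2 called only with a block, Ifi27 by genotype and Ifitm1 by batch, and no other call. By genotype they ran from -0.35 to 0.57 for Irf9, -1.76 to 0.23 for Ifi27, -0.27 to 0.021 for Ifi35, -0.24 to 0.38 for Ddx58, -0.38 to 0.50 for Psmb8, -0.60 to 0.17 for Psmb9 and -0.54 to 2.66 for H2-Q1. By batch they ran from -0.13 to 0.97 for Ifit3, -0.20 to 1.11 for Oasl1, -0.16 to 0.41 for Oas2, -0.42 to 0.45 for Rsad2, -0.28 to 0.32 for Irf1, -0.46 to 0.45 for Irf8, -2.39 to 1.21 for Ifitm1, -0.16 to 0.33 for Ifitm2, -0.18 to 0.38 for Ifitm3, -0.085 to 0.24 for Ifi35, -0.18 to 0.40 for Ddx58, -0.12 to 0.59 for Psmb8, -0.012 to 0.12 for Tapbp and -0.16 to 0.019 for Dcn. These fits had 1 term, so with 1 array left out the other factor was no longer balanced between the groups compared. Within the batches, Ifi27 differed by genotype by -0.93 in batch B and -0.61 in batch A. Within the genotypes, Ifitm1 differed by batch by -0.63 in Gata6 null/Apc null and -0.56 in Apc null. The causes of the turned signs were not tested. Over all alternatives, 267 genotype values and 463 batch values kept their direction and side of the threshold. Another 12 genotype values and 23 batch values turned direction, and the rest moved across the threshold. No gene passed in the main batch fit, so no batch value could lose a call. The alternatives for genes outside the members were added after the data were seen.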
